A study of Mus musculus with 4 samples.

Results

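The HoxB cluster was described here through the binding of CTCF and of RAD21, a subunit of the cohesin complex, in mouse limb buds. The members were the 10 genes Hoxb1 to Hoxb9 and Hoxb13, and the sites were all peaks whose summits lay between the outermost members or within 200 kb to either side of them. On mm10 (GRCm38) with the GENCODE M21 annotation, this window extended over chr11:95994316-96568256, with the cluster itself at chr11:96194316-96368256. Once peaks sharing at least 1 bp were merged, 23 of the 33127 sites of the 5 peak lists fell into the window, and 22 of them carried a CTCF peak. The window held 18 protein-coding genes.

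The study brought region CS38-40, a sub-TAD border of the HoxD locus, to an ectopic place in the genome. CTCF and RAD21 were profiled by ChIPmentation, a chromatin immunoprecipitation with tagmentation of the bound chromatin, in whole limbs at E12.5, with 2 biological replicates per antibody. These embryos were TgN(38-40)/Wt; del(CS38-40)-/- of strain B6CBAF1, hence hemizygous for the transgene and lacking both endogenous copies of the region, and they are called transgenic below. Neither change lies on the chromosome of the HoxB cluster. The only list set against them came from 1 RAD21 ChIP-seq library of wild-type whole limbs from an earlier study, whose strain is not given in the sources used here. No wild-type CTCF list was among the files used here, so CTCF was described in transgenic limbs alone.

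Hox genes encode homeodomain transcription factors that give cells their position along the body axis, and their order along the chromosome follows the order in which they are used from anterior to posterior. Within HoxB, Hoxb1 lies at the anterior end and acts in the hindbrain, Hoxb5 takes part in placing the forelimb, and Hoxb13 lies at the posterior end, away from the other genes. CTCF is a zinc finger protein that binds a long asymmetric motif, and cohesin sliding along DNA is stalled at CTCF, so that the strand of the motif sets the side from which loops are held.

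The sequences at the sites are shown first, since the strand of each motif is read from them. In each line the capitals mark the 19 bp CTCF motif, read 5′ to 3′ along the strand that carries it, with 20 bp of the genome to either side. The first set holds strong CTCF or RAD21 sites of the window and the sites at Hoxb8 and Hoxb5, all with a motif within 50 bp of a summit. Sites 14, 15 and 17, between Hoxb9 and Hoxb4, had no match at that distance and are not printed. Sites are numbered from 1 at Igf2bp1 to 23 at Skap1.
Site 4, Atp5g1 to Calcoco2, chr11:96093503-96093561, plus strand: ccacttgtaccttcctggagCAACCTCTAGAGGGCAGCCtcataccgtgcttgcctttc
Site 5, Calcoco2 to Ttll6, chr11:96127115-96127173, minus strand: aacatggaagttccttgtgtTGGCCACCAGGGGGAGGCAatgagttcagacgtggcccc
Site 10, Hoxb13 to Hoxb9, chr11:96235082-96235140, minus strand: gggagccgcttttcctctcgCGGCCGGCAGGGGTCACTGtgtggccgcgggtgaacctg
Site 11, Hoxb13 to Hoxb9, chr11:96240398-96240456, minus strand: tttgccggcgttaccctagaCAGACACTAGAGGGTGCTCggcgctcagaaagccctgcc
Site 12, Gm53 exon, chr11:96261729-96261787, minus strand: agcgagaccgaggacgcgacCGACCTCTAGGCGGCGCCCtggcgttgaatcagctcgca
Site 13, Hoxb9 to Hoxb8, chr11:96278925-96278983, plus strand: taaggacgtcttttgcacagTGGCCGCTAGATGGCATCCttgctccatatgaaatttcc
Site 16, Hoxb6 to Hoxb5, chr11:96303222-96303280, plus strand: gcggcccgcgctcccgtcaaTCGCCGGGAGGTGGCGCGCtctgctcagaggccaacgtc
Site 20, Hoxb1 to Skap1, chr11:96438927-96438985, plus strand: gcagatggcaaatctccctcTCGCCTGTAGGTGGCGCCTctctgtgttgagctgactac
Site 21, Skap1 intron, chr11:96536330-96536388, minus strand: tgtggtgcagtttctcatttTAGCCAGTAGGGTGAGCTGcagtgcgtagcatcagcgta

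All 10 HoxB genes are transcribed from the plus strand, from Hoxb13 toward Hoxb1. A plus-strand motif therefore points toward Hoxb1 and Skap1, and a minus-strand motif toward Hoxb13 and Igf2bp1. Among the sites printed above, the 3 between Hoxb13 and Hoxb9 carried the motif on the minus strand, whereas those at Hoxb8 and Hoxb5 carried it on the plus strand.

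**Figure D1:**
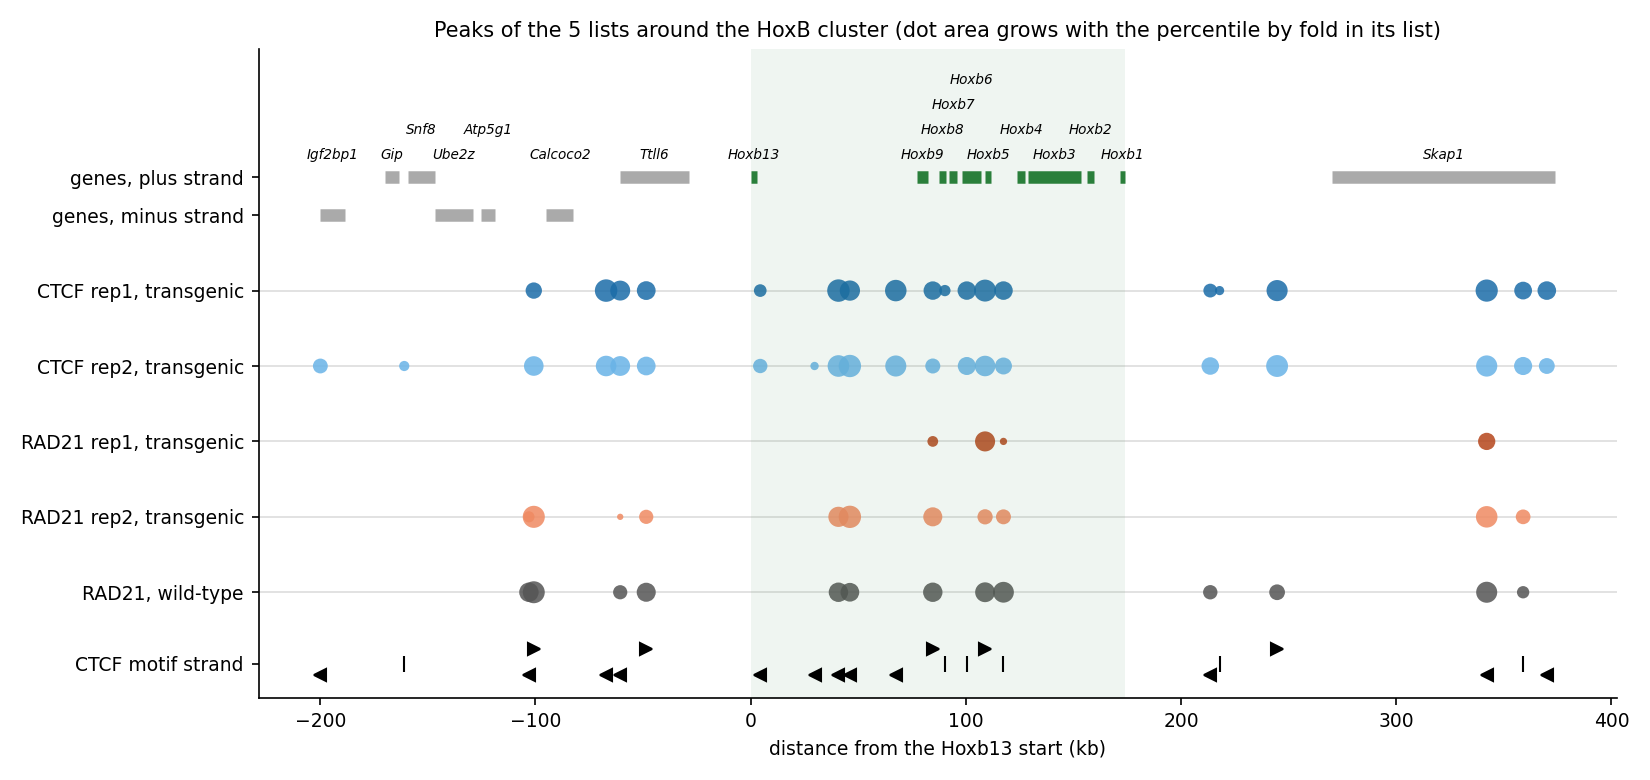
Peaks of the 5 lists along the HoxB window. The x axis gives the distance from the Hoxb13 start in kb, each dot is a peak with an area that grows with its percentile by fold in its own list, arrowheads give the strand of the CTCF motif within 50 bp of a summit, vertical ticks mark sites with no match there, and the shaded part is the HoxB cluster. CTCF sites stop between Hoxb5 and Hoxb4 and resume 95685 bp further, and the 5 sites between Hoxb13 and Hoxb9 all have minus-strand motifs.

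The strength of a peak is given as its fold enrichment, the summit signal divided by the background that MACS2 expected around it, as the authors computed it. The lists differed in length, with 23829 and 26264 CTCF peaks and 4102 and 14787 RAD21 peaks in transgenic replicates 1 and 2, and 20874 RAD21 peaks in wild-type limbs. The RAD21 list of replicate 1 stood apart as the shortest. Folds were therefore ranked only within a list. Folds of different lists are printed side by side at some sites but are not compared. The median RAD21 fold was 6.13 and 7.30 in the transgenic lists of replicates 1 and 2 and 4.57 in the wild-type list. Across lists each peak is given by its percentile, the share of the peaks of its own list with a fold at or below its own. A peak that is absent from a list lay below the MACS2 threshold in that library. Read depth is not given in the sources used here, so no counting error could be set on a fold. Whole limbs hold several cell types, and strong binding in a few cells cannot be told apart from weak binding in many.

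CTCF peaks were dense around HoxB. The window held 19 and 20 CTCF peaks in replicates 1 and 2, which is 33.1 and 34.8 peaks per Mb, whereas the whole lists averaged 8.73 and 9.63 per Mb. RAD21 gave 4 and 11 peaks in the transgenic replicates, or 6.97 and 19.2 per Mb against 1.50 and 5.42 over the lists, and 13 peaks in wild-type limbs, or 22.7 per Mb against 7.63. Such density was not particular to HoxB. The window of the HoxC cluster, drawn in the same way and shorter, held 15 and 17 CTCF peaks in replicates 1 and 2. It held 4 and 10 RAD21 peaks in the transgenic replicates and 13 in wild-type limbs. With no replicate of the window itself, these densities were not tested. Of the 22 CTCF sites, 17 had a peak in both replicates, where 73% of all CTCF sites of the genome did. The other 5 were sites 1, 2 and 9, found in replicate 2 alone, and sites 14 and 19, found in replicate 1 alone. These were low in their lists, between the 7.36 and 38.9 percentile by fold.

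The CTCF peaks of the window stood somewhat above the middle of their lists, with a median percentile of 65.2 in replicate 1 and 63.8 in replicate 2. The RAD21 peaks had medians of 36.1 and 41.4 in the transgenic replicates and 71.4 in wild-type limbs. These medians are over 4, 11 and 13 peaks, and a percentile depends on where its list ends, so the RAD21 medians are not compared with each other. At the 17 sites seen by both CTCF replicates, the percentiles of the replicates differed by a median of 9.56 points, compared with 15.0 over the 21043 peak pairs of the genome.

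**Figure D2:**
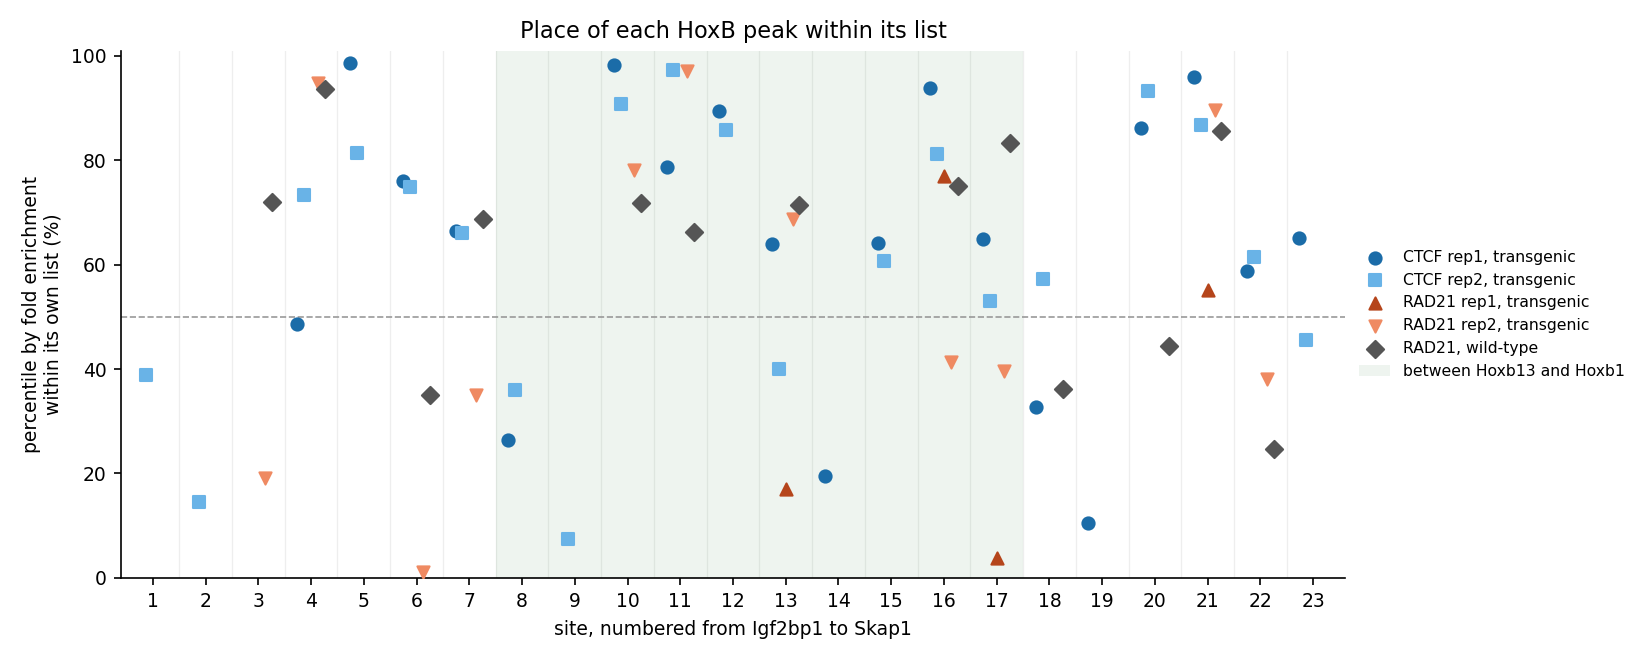
Percentile by fold enrichment of every HoxB peak within its own list, for the 23 sites in chromosomal order. Each symbol is 1 peak of 1 list, a missing symbol means no peak called, the dashed line is the middle of a list and the shaded part marks the sites between Hoxb13 and Hoxb1. RAD21 replicate 1 has symbols at 4 sites only, and sites 5 and 12 have high CTCF symbols and no RAD21 symbol.

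Between Hoxb13, the most posterior gene, and Hoxb9, a patterning gene of the thoracic skeleton, the cluster has an interval of 74009 bp with 5 sites. Site 8 lay 4454 bp downstream of the Hoxb13 start and had weak CTCF peaks, with folds of 5.47 and 6.67 at the 26.4 and 36.0 percentile. Its summits were at chr11:96198769 in replicate 1 and chr11:96198508 in replicate 2. Only the summit of replicate 1 had a motif within 50 bp. Site 9 was called in CTCF replicate 2 only, with a fold of 4.88 at the 7.36 percentile. Neither carried a RAD21 peak in any list.

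The next pair, sites 10 and 11, was 5316 bp apart and lay 36346 and 31030 bp upstream of the Hoxb9 start. Site 10 had CTCF folds of 11.4 and 12.1, at the 98.4 and 90.7 percentile. Site 11 had CTCF folds of 8.20 and 14.2, at the 78.7 and 97.3 percentile, and its fold in replicate 2 was the highest CTCF fold of the window in that list. Both carried RAD21 in transgenic replicate 2 and in wild-type limbs but not in transgenic replicate 1. At site 11 the RAD21 fold was 13.1 in transgenic replicate 2, at the 97.2 percentile and highest of the 11 peaks in the window. In wild-type limbs it was 5.83, at the 66.2 percentile and at place 9 of 13. This gap is not read as a difference in binding. At site 10 the RAD21 fold was 9.59 in transgenic replicate 2 and 6.34 in wild-type limbs, at the 78.1 and 71.9 percentile.

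Site 12, the last one before Hoxb9, lay in an exon of the lincRNA Gm53, 9699 bp upstream of the Hoxb9 start. Its CTCF folds were 9.24 and 11.2, at the 89.5 and 85.8 percentile, and no RAD21 list had a peak there. Site 5, between Calcoco2 and Ttll6, behaved alike, with CTCF folds of 11.6 and 10.5 at the 98.6 and 81.3 percentile, the highest CTCF fold of the window in replicate 1, and no RAD21 peak. In all, 6 CTCF sites of the window reached the 80 percentile in both replicates, a level set after the values were seen. Of these, 2 lacked RAD21 in every list, whereas 12% of the 2925 such sites of the genome did.

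From Hoxb9 to Hoxb4 there were 5 sites, of which 3 were called in all 5 lists and 2 had CTCF only. Site 13, in the interval between Hoxb9 and Hoxb8 and 2951 bp upstream of the Hoxb8 start, was called in all 5 lists. Hoxb8 encodes a homeodomain factor with known roles in skeletal patterning and in blood progenitors. Its CTCF folds were moderate, 7.27 and 6.89 at the 64.1 and 40.0 percentile, and its RAD21 folds were 5.18 and 8.65 in the transgenic replicates, at the 17.0 and 68.7 percentile, and 6.29 in wild-type limbs, at the 71.4 percentile.

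Sites 14 and 15 fell inside transcription units, around Hoxb7, a gene active in the duct system of the kidney, and Hoxb6, a gene of the lateral plate and limb mesoderm. Site 14, in the annotated UTR of Hoxb8 and 2047 bp upstream of the Hoxb7 start, had a CTCF fold of 5.12 in replicate 1 and no other peak. Site 15, in an intron of Hoxb6 that is also covered by the antisense gene Hoxb5os, had CTCF folds of 7.28 and 8.50 at the 64.2 and 60.8 percentile. RAD21 was not called at either one.

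Site 16 was the only one that reached a HoxB gene start in every list to within 11 bp. It was centred 85 bp upstream of the annotated start of Hoxb5, within an intron of Hoxb5os on the opposite strand. Its CTCF folds were 9.94 and 10.5, at the 93.9 and 81.2 percentile, which gives a mean percentile of 87.5 ± 8.99 (SD, n = 2). Its RAD21 folds were 7.16 and 6.76 in the transgenic replicates, at the 77.1 and 41.4 percentile, against 6.67 in wild-type limbs, at the 75.1 percentile. In transgenic replicate 1 it was the highest RAD21 peak of the window.

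Site 17, between Hoxb5 and Hoxb4 and 6469 bp upstream of the Hoxb4 start, was also called in all 5 lists. CTCF folds there were 7.32 and 7.87, at the 64.9 and 53.0 percentile. RAD21 folds were 4.57 and 6.64 in the transgenic replicates, at the 3.80 and 39.5 percentile, against 7.58 in wild-type limbs, at the 83.4 percentile. By rank it was 3947 of 4102 in transgenic replicate 1 and 8940 of 14787 in transgenic replicate 2, so these percentiles depend on the length of each list and their gap is not read as a difference in binding. Replicate 1 had no RAD21 peak there on the custom genome, the reference with the inserted transgene.

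After site 17 no peak of any list was found for 95685 bp. This stretch holds Hoxb4, Hoxb3, Hoxb2 and Hoxb1, the anterior genes of the cluster, of which Hoxb1, Hoxb2 and Hoxb3 pattern the hindbrain and Hoxb4 is known for expanding blood stem cells. Gaps of this length are common, since 20.0% of the 33016 gaps between neighbouring sites of the genome were at least as long, and their median was 29721 bp. Within the window the median gap was 14149 bp, and a still longer one of 97004 bp separated sites 20 and 21.

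**Figure D3:**
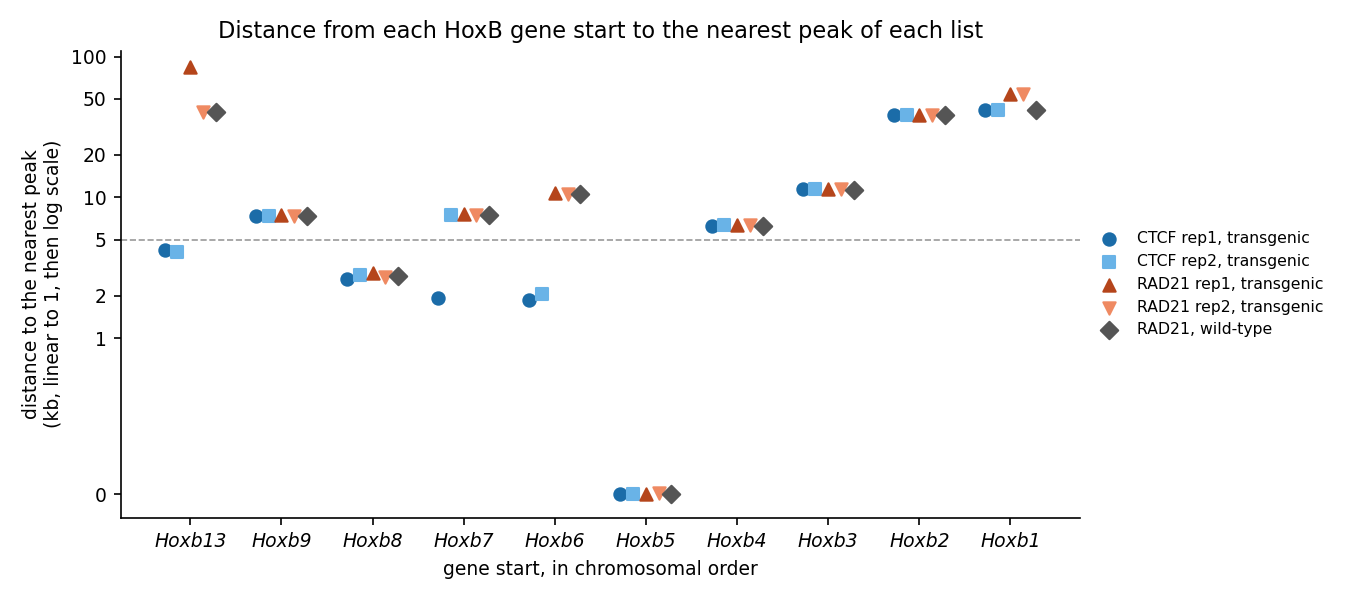
Distance from the start of each HoxB gene to the edge of the nearest peak of each list, with the genes in chromosomal order. The y axis is in kb, linear to 1 kb and logarithmic above, a distance of 0 means that the start lies inside the peak, and the dashed line is 5 kb. Hoxb5 has peaks of all 5 lists at its start, whereas Hoxb2 and Hoxb1 are more than 38 kb from any peak.

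At the level of gene starts, a CTCF peak lay within 5 kb of 5 of the 10 HoxB genes in replicate 1 and of 4 in replicate 2, whereas 22% and 23.7% of all protein-coding genes had one. The genes were Hoxb13, Hoxb8, Hoxb6 and Hoxb5 in both replicates and Hoxb7 in replicate 1 only. RAD21 lay within 5 kb of Hoxb8 and Hoxb5 in every list, thus 2 of 10 genes in transgenic replicate 1, in transgenic replicate 2 and in wild-type limbs, where the shares over all genes were 2.67%, 11.7% and 18.5%. The starts of neighbouring HoxB genes share sites and are not independent of each other. The nearest peak was 7322 to 7440 bp away for Hoxb9, 6273 to 6354 bp for Hoxb4 and 11332 to 11413 bp for Hoxb3, depending on the list. Hoxb2 was 38531 to 38612 bp and Hoxb1 41928 to 53839 bp from the nearest peak. With a distance of 2 kb, CTCF was counted at 3 genes and RAD21 at 1, and with 10 kb at 7 and 5.

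A further 13 sites lay outside the cluster. On the side of Hoxb13, sites 3 and 4 lay 2250 bp apart between Atp5g1, which encodes a subunit of the mitochondrial ATP synthase, and Calcoco2, which encodes an autophagy receptor. Site 4 held the highest RAD21 peak of the window in wild-type limbs and the next to highest in transgenic replicate 2, with a fold of 12.2 in transgenic replicate 2 and of 9.17 in wild-type limbs, at the 94.8 and 93.7 percentile. Its CTCF folds were 6.44 and 9.65, at the 48.7 and 73.3 percentile. Site 3 was the only site of the window with RAD21 and no CTCF, and its RAD21 fold was 5.54 in transgenic replicate 2, at the 19.1 percentile, and 6.38 in wild-type limbs, at the 72.1 percentile. Sites 6 and 7, 90 bp upstream of the start of the tubulin glutamylase gene Ttll6 and within one of its introns, had CTCF at the 66.2 to 76.1 percentile and RAD21 in transgenic replicate 2 and wild-type limbs. Sites 1 and 2, at Igf2bp1 and between Gip and Snf8, were the weak CTCF sites of replicate 2 named above.

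On the side of Hoxb1, sites 18, 19 and 20 lay in the intergenic stretch before Skap1, which encodes an adaptor protein of T cells, and sites 21, 22 and 23 in introns of Skap1. Site 21 was called in all 5 lists. It had CTCF folds of 10.5 and 11.3, at the 96.0 and 86.8 percentile, and RAD21 folds of 6.29 and 11.1 in the transgenic replicates, at the 55.2 and 89.7 percentile, against 7.85 in wild-type limbs, at the 85.5 percentile. Site 20 had CTCF folds of 8.86 and 12.7, at the 86.1 and 93.2 percentile. Site 22 had CTCF folds of 6.96 and 8.56, at the 58.8 and 61.5 percentile, and a RAD21 fold of 6.55 in transgenic replicate 2, at the 38.2 percentile, against 3.22 in wild-type limbs, at the 24.7 percentile. Sites 18 and 23 had CTCF in both replicates, from the 32.7 to the 65.2 percentile.

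RAD21 was called at 4 of the 22 CTCF sites in transgenic replicate 1, at 10 in transgenic replicate 2 and at 12 in wild-type limbs, whereas over all CTCF sites of the genome the shares were 13.5%, 46.7% and 58.7%. The HoxB shares were thus close to those of the genome. The 4 sites of replicate 1, at Hoxb8, at Hoxb5, between Hoxb5 and Hoxb4 and in Skap1, were the 4 sites present in all 5 lists. When each RAD21 list was shortened to the 4102 peaks of replicate 1 by q-value, replicate 2 kept 4 sites of the window, namely 4, 11, 21 and 10, and the wild-type list kept 3, namely 4, 17 and 21. Of the 4 sites of replicate 1, only site 21 was among the 4 kept from replicate 2. Those 4 sites were all the peaks of replicate 1 in the window. Sites 16, 21, 13 and 17 ranked 1080, 2166, 3315 and 3978 of its 4102 peaks by q-value. In replicate 2, site 10 fell inside the cut at rank 3744 and site 13 outside it at rank 4483. Which sites were kept thus depended on the place of the cut, and no difference between the replicates is read from them.

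Between transgenic and wild-type limbs, all 11 RAD21 sites of the transgenic lists had a wild-type peak, and 93.4% did over the genome. In turn, 11 of the 13 wild-type peaks had a transgenic one, where 66.9% did over the genome. The other 2 were sites 18 and 20, with folds of 3.73 and 4.20 in wild-type limbs, at the 36.1 and 44.5 percentile, and no RAD21 peak in either transgenic replicate. Of the 11 transgenic RAD21 sites, 10 lay on a CTCF site, and 90.4% did over the genome. At the 11 sites shared by transgenic replicate 2 and wild-type limbs, the percentiles were related with a Spearman rho of 0.41, against 0.72 over the 13767 pairs of the genome. They differed by a median of 31.0 points in the window and 14.6 over the genome. The 2 transgenic RAD21 replicates also lay far apart at the 4 sites they shared. Their percentiles were 17.0 and 68.7 at site 13, 77.1 and 41.4 at site 16, 3.80 and 39.5 at site 17, and 55.2 and 89.7 at site 21. RAD21 percentiles depend on where each list ends, so no difference between genotypes is read from the 31.0 points or the rho. These are descriptions of single lists. Genotype, assay (ChIPmentation or ChIP-seq), strain and library cannot be told apart in this comparison, and with 1 wild-type library no test was possible.

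A CTCF motif within 50 bp of a summit was found at 16 of the 22 CTCF sites, where 74.5% of all CTCF sites had one. The summit of 1 replicate was enough. At sites 4, 6, 10, 11, 12, 16 and 23, called in both CTCF replicates, only the summit of replicate 2 had the motif within 50 bp. At site 8 only that of replicate 1 did. The model was learned from these data on chromosomes other than that of HoxB, and a match was a score that 5% of flanking sequences reached. Of the 16 motifs, 5 lay on the plus strand and 11 on the minus strand, while 50.4% of the matches of the genome were on the plus strand. Inside the cluster, the sites 8 to 12 on the posterior side of Hoxb9 had 5 motifs on the minus strand, pointing toward Hoxb13. Sites 13 and 16, at Hoxb8 and Hoxb5, had theirs on the plus strand, pointing toward Hoxb1. The motifs of sites 12 and 13, to either side of Hoxb9, thus pointed away from each other across 17196 bp. Right of the cluster, site 20 was on the plus strand, and sites 18, 21 and 23 on the minus strand.

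This order depended on how far from the summit a motif was sought. Within 100 bp, 21 of the 22 sites had a match, as did 91.7% of all CTCF sites, with 6 on the plus and 15 on the minus strand. The threshold was kept from the search within 50 bp, and a longer sequence reaches it more easily. The 16 motifs found within 50 bp kept their strand, but sites 14 and 15, at Hoxb8 and Hoxb6, then gained minus-strand motifs of score 6.62 and 15.5, so that the run from Hoxb8 to Hoxb5 was no longer all on the plus strand. Sites 2 and 22 gained minus-strand motifs and site 19 a plus-strand one, of score 14.8, 22.1 and 19.3. Site 17 had its best match at 5.89, just under the threshold of 6.15, and was counted on the plus strand with the model learned from replicate 1. Among the matches within 50 bp, the lowest score inside the threshold was 9.24, at site 1.

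The motif scores found within 50 bp are given for 4 sites, chosen after their values were seen. No relation over all sites was computed. Site 5, with the highest score of the window within 50 bp of a summit, 21.7 at the 92.5 percentile among all matches, had high CTCF and no RAD21. Site 9, with a score of 21.0 at the 88.8 percentile, had the weakest CTCF peak of the window in replicate 2. Site 16 at Hoxb5 had strong CTCF on a motif of score 13.9, at the 25.1 percentile, and site 21 on one of score 11.4, at the 12.2 percentile.

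The motif of site 9 resembled those of sites 3 and 23, and the 3 are shown for this likeness. Capitals again mark the motif.
Site 3, Atp5g1 to Calcoco2, chr11:96091253-96091311, minus strand: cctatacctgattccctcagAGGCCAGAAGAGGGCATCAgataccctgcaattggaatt
Site 9, Hoxb13 to Hoxb9, chr11:96223983-96224041, minus strand: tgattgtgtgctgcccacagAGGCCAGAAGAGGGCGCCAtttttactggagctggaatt
Site 23, Skap1 intron, chr11:96564262-96564320, minus strand: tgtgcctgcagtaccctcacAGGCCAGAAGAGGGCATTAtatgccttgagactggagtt

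Over the 19 bp of the motif, sites 3 and 23 shared 18 bases, sites 3 and 9 shared 17 and sites 9 and 23 shared 16. Over all 59 bp shown they shared 39, 39 and 37. Within 201 bp around the mean peak summits of these 3 sites, 77.6%, 50.2% and 75.1% of the bases were masked as repeats in the reference. The 3 sites differed in the peaks called. Site 3 had RAD21, at the 19.1 percentile in transgenic replicate 2 and the 72.1 in wild-type limbs, and no CTCF. Site 9 had a CTCF peak in replicate 2 only, at the 7.36 percentile. Site 23 had CTCF in both replicates with folds of 7.34 and 7.34. A missing call means a signal below the threshold, so no difference in binding is read from these calls.

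Most sites inside the cluster lay in sequence of another kind. Of the 10 CTCF sites of the cluster, 7 had no repeat-masked base within 201 bp. The same held for 10 of the 22 in the window, which include the cluster sites, and for 39.9% of all CTCF peaks of replicate 2. The 201 bp were centred on the mean CTCF summit of a window site, but on the single summit of each replicate 2 peak. The GC content of the cluster sites had a median of 58.2%, against 53.5% in the window and 49.3% over all. They held a median of 9 CpG, against 6.5 and 3. Site 14 in Hoxb8 was the extreme, with 74.1% GC and 25 CpG. The 300 bp promoters of Hoxb8, Hoxb4 and Hoxb1 in RefSeq (GRCm38) held no match to the motif model, while 24.3% of 32851 promoters did. This says only that no stretch of those windows reached the threshold. The promoter set held only these 3 of the 10 members. Hoxb5, where the motif of site 16 was centred 85 bp upstream of the start, was not among them.

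Set beside the other Hox clusters, with the same 200 kb to either side, HoxB had the most CTCF sites, with 22 against 10 for HoxA, 17 for HoxC and 8 for HoxD. It is also the longest cluster, at 173941 bp against 105291 bp for HoxA, 115750 bp for HoxC and 96833 bp for HoxD. Its window is longer by as much, so the counts per window are not densities. Inside the clusters there were 10 CTCF sites in HoxB, 5 in HoxA, 3 in HoxC and 5 in HoxD, which is 5.75, 4.75, 2.59 and 5.16 sites per 100 kb. The motifs inside the clusters were on the plus and minus strands in 2 and 5 cases in HoxB, 2 and 3 in HoxA, 3 and 0 in HoxC and 3 and 1 in HoxD. HoxA is transcribed from the minus strand and the other clusters from the plus strand. A CTCF peak of replicate 1 or 2 lay within 5 kb of the start of 5 of 10 HoxB genes, 6 of 11 HoxA genes, 3 of 9 HoxC genes and 7 of 9 HoxD genes. RAD21 replicate 1 had 4 peaks in the HoxB window and 0, 4 and 2 in those of HoxA, HoxC and HoxD. RAD21 replicate 2 had 11 in HoxB and 5, 10 and 7 in the others, and the wild-type list 13 and 9, 13 and 9. HoxC, with a shorter window, thus had as many peaks as HoxB in RAD21 replicate 1 and in the wild-type list. No test was made between the clusters, each of which is 1 locus.

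**Figure D4:**
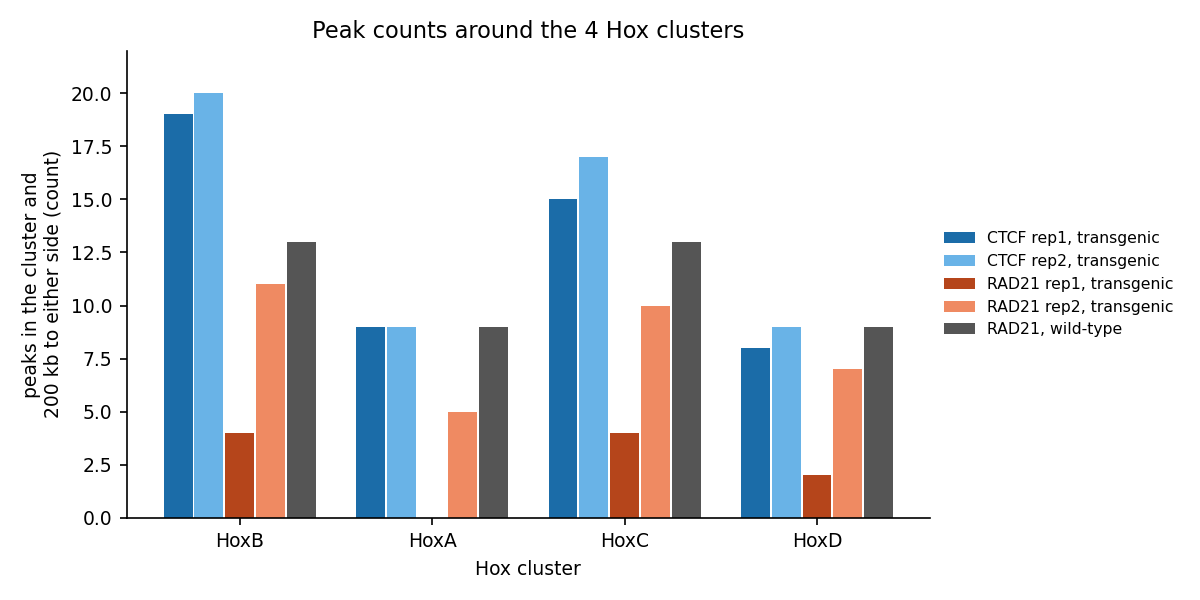
Number of peaks of each list in the windows of the 4 Hox clusters, each window being the cluster and 200 kb to either side. Bars start at 0 and carry no error bar, since each cluster is 1 locus. HoxB has 19 and 20 CTCF peaks in replicates 1 and 2, more than the other clusters, with HoxC next at 15 and 17. HoxB and HoxC each have 13 wild-type RAD21 peaks, and the windows differ in length with the clusters.

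A list of 25 genes that work with or upstream of Hox genes was examined at their starts. It held the PBX, MEIS and PKNOX cofactors that bind DNA together with Hox proteins, the retinoic acid genes, the caudal genes, and the Polycomb genes that keep Hox genes silent. A CTCF peak lay within 5 kb of 8 of the 25 in replicate 1 and of 5 in replicate 2, and a RAD21 peak of 1 and 4 in the transgenic replicates and of 3 in wild-type limbs. Over all protein-coding genes the shares were 22% and 23.7% for CTCF, and 2.67% and 11.7% in the transgenic replicates and 18.5% in wild-type limbs for RAD21. Nothing particular to the list is read from these counts. Aldh1a2, which makes the enzyme that forms retinoic acid, had a peak in all 5 lists. Cyp26b1, which encodes an enzyme that degrades retinoic acid in the limb, had one in every list but RAD21 replicate 1. Of the 9 cofactors, Pknox2 had CTCF in both replicates and Meis3 in replicate 1 only. Among the 6 Polycomb genes CTCF lay at Cbx2 in both replicates and at Rnf2 in replicate 1.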

How the data were processed

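CTCF and RAD21 ChIPmentation of TgN(38-40)/Wt; del(CS38-40)-/- whole limbs and RAD21 ChIP-seq of wild-type limbs were used as peak lists, 1 per replicate. The authors aligned reads to mm10 and, keeping all of them, to a second reference sequence carrying the insertion (the custom genome), and ran MACS2 separately for every replicate. Tools named by the submitters in their processing notes are cutadapt 1.16, Bowtie2 2.3.4.1 and 2.3.5, SAMtools 1.9, Picard 2.19 and MACS2 2.1.1.20160309. The deposited columns hold a fold enrichment, a ratio of summit signal to the background expected around it, together with the p-value and the q-value of the peak as −log10. No deposited peak had a q-value above 0.05. The control given to MACS2 and the read depth are not given in the sources used here, so the precision of a fold is unknown. Folds of the wild-type list are the authors' values for 1 library. The input samples have no peak list and entered no comparison.

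Peaks were assigned to the window by their summits, merged on a shared stretch of 1 bp or more, and ordered by fold in each list. Distances to genes run from the GENCODE M21 start, and the mm10 lists were used with the GRCm38 sequence. A 19 bp motif model was learned from 2000 peaks of CTCF replicate 2, leaving out the 100 strongest and the chromosome of HoxB, and scanned on both strands within 50 bp of each CTCF summit (of the RAD21 summits where a site had no CTCF peak). Flanking sequences were taken 500 bp away. The promoters of 3 members were matched in the RefSeq table. The steps were tested on simulated data. Python 3.11.15, numpy 2.4.6, pandas 2.3.3, pysam 0.24.0 and samtools 1.23.1 were used.

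No test was made, as there were 2 replicate lists per antibody and 1 wild-type list. Peaks are not replicates, and counts are set beside the same share over the genome. The members and gene lists were chosen with earlier results of these data known. Every HoxB gene, every protein-coding gene next to a site and every peak of the window could be named, with values in full inside the cluster and, outside it, for the 3 highest peaks by fold of each list. Alternatives were other q-value thresholds, flanks, overlaps, gene distances, motif settings, ranking by q-value, each replicate alone and the custom genome, and, added after seeing the data, lists of equal length.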

Additional observations from a re-analysis of the deposited data

Results flagged for a closer look

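In data outside the comparisons above, namely the CTCF lists mapped to the custom genome, both replicates had a peak in the annotated UTR of Atp5g1 that was not called on mm10. Its fold was 6.92 in replicate 1, at the 59.6 percentile of that list, and 9.05 in replicate 2, at the 68.4 percentile. A motif match was found near the summit of replicate 2 but not of replicate 1. For the custom genome the authors kept all reads, and the part of this step in the peak was not tested.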

How the results depend on the processing

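The counts moved with the q-value threshold, the width of the window and the length of the lists. At a −log10 q of at least 10, CTCF kept 10 and 13 peaks, RAD21 kept 0 and 5 in the transgenic replicates, and 4 CTCF sites had transgenic RAD21 instead of 10. At a −log10 q of at least 5, RAD21 replicate 1 kept 2. With 500 kb to either side there were 37 and 41 CTCF peaks, 8 and 20 RAD21 peaks in the transgenic replicates and 25 in wild-type limbs, and with 100 kb RAD21 replicate 2 had 7. In lists of equal length, chosen after seeing the data, CTCF had 6 and 5 peaks, RAD21 replicate 2 had 4 and the wild-type list 3. Using 1 replicate of each antibody alone gave 4 to 10 CTCF sites with RAD21, the 4 being replicate 1. Within 2 kb, CTCF lay at 3 gene starts and RAD21 at 1, and within 10 kb RAD21 lay at 5. Ranked by q-value, the median CTCF percentiles were 67.6 and 62.3, which moved by more than the SD of 0.963 between the replicate medians. The other 33 of 55 alternatives stayed within 1.5 times the count or within the SD between the replicate medians of the antibody. No paired analysis was possible because the replicates of the antibodies share no stated pairing and no result came from a test.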

Other observations

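Mapping to the custom genome, which leaves the sequence of the HoxB chromosome as it is, also moved 3 weak calls. A CTCF peak of replicate 1 with a fold of 4.28, between Gip and Snf8 at site 2, was found on the custom genome only. The RAD21 peak of replicate 1 at site 17, with a fold of 4.57, and the RAD21 peak of replicate 2 at site 6, with a fold of 4.17, were found on mm10 only. On the custom genome site 17 therefore had RAD21 in transgenic replicate 2 but not in replicate 1, and site 6 at Ttll6 had no transgenic RAD21 peak.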
